A study of Bos taurus with 12 samples.

Results

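The miR-10 and miR-196 miRNAs encoded within the HOX gene clusters were described in bovine mammary tissue. Their members were the rows of the deposited miRNA table named bta-miR-10a, bta-miR-10b, bta-miR-196a and bta-miR-196b, taken with the precursor of highest mean, which gave 4 of 388 mature miRNAs (5 of 426 precursor rows). The samples were mammary biopsies of 12 healthy, multiparous Chinese Holstein cows, with 1 small RNA library per cow and 3 cows in each of 4 groups. The HP (high) and LP (low milk protein percentage) cows were biopsied during lactation, at 70 to 85 days in milk. The HD (high) and LD (low) cows were biopsied when not lactating, from 39 to 20 days ahead of calving, which was 24 to 35 days after dry-off. The cows were selected on herd records of protein percentage, and none carried a transgene or a treatment. Each biopsy came from 1 site of the gland and was used as bulk tissue, not sorted by cell type. The biopsies were not visually inspected, which the authors call a weakness.

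HOX genes encode transcription factors that set position along the body axis, and they lie in 4 clusters. MiR-10 and miR-196 genes sit between the HOX genes of these clusters and are transcribed with the region around them. MiR-196 is known for pairing almost perfectly with HOXB8 mRNA, and miR-10 for its link to the HOX genes next to it and to cell motility. MiR-10a and miR-10b share a seed and differ at a base near the middle, as do miR-196a and miR-196b. Reads of the paralogs can thus be partly confused where mapping allows a mismatch. MiR-99a, miR-99b and miR-100 have a seed close to that of miR-10 and were followed as relatives.

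In the RefSeq gene table of the ARS-UCD2.0 assembly, used for names and gene order only, 5 of 5 precursors were found in HOX clusters. MIR10A lay between HOXB5 and HOXB4, within the span annotated as HOXB3. MIR10B lay within HOXD4, before HOXD8. MiR-196a has a pair of precursors in different clusters. MIR196A-1 lay within the span of HOXB9, before HOXB8, and MIR196A-2 lay between HOXC9 and HOXC10. MIR196B lay between HOXA10 and HOXA9. MiR-615, another miRNA of a HOX cluster, had no row in the expression table.

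Expression is given in the unit the authors call TPM, which is RPM over all precursor rows with no correction for length. Depth was inferred from the values. It rests on the low values of a library being whole multiples of the value of 1 read, and it was not accepted as a full recovery of reads, so read numbers are estimates. By this estimate it ranged from 6026621 to 23577190 reads, and its median was 10732368 over the lactation libraries against 21207964 over the non-lactating ones. Differences were tested with limma on log2(normalized TPM + 1), where normalized TPM is TPM divided by a median-of-ratios size factor. HD replicate 1 and LD replicate 1 stood apart, with size factors of 1.50 and 1.50 against 0.764 to 1.14 in the other 10 libraries. They were also the cows farthest from calving, at 35 and 39 days. The members' fits in each comparison that includes them, and the correlations and likeness values, are also given without them. The ratios are given with each library left out. Slopes of the relatives, the cell type markers and the single precursor rows, and slopes by phenotype, are given with them only. Markers of mammary epithelium (miR-200 family, miR-141, miR-429 and miR-205) were present in each library, with a summed level of 34301 to 44371 TPM in lactation and, among non-lactating cows, of 14978 to 38785 TPM.

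The members covered a wide range of abundance. bta-miR-10b ranked 5 of 388 by mean (44431 TPM), which was 5.60% of the TPM summed over the 388 rows kept. bta-miR-10a ranked 33 (3679 TPM), bta-miR-196a 93 (320 TPM) and bta-miR-196b 116 (184 TPM). Together the members made up 2.94% to 8.31% of the TPM of a library over all precursor rows. In the order of their means the members kept apart, except that bta-miR-196a and bta-miR-196b overlapped across libraries. The lowest member value rested on an estimated 962 reads, that of bta-miR-196b, and for bta-miR-10b the lowest estimate was 163001 reads. Across libraries the highest value of a member was 2.82 to 3.72 times its lowest, so all 4 members were expressed throughout.

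bta-miR-10b was measured at 27046, 43262 and 58073 TPM in HP, and at 41214, 39024 and 35928 TPM in LP. In the non-lactating period it was measured at 35556, 40425 and 47417 TPM in HD, and at 32646, 56316 and 76263 TPM in LD. The groups overlapped, with LD holding the highest value and HP the lowest. bta-miR-10a was measured at 1996, 3315 and 3863 TPM in HP, and at 2727, 3275 and 2782 TPM in LP. It was measured at 3096, 4810 and 4083 TPM in HD, and at 3299, 4809 and 6098 TPM in LD. LD replicate 3 was again the highest library and HP replicate 1 the lowest.

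bta-miR-196a was measured at 204, 183 and 272 TPM in HP, and at 428.96, 226 and 174 TPM in LP. It was measured at 348, 307 and 488 TPM in HD, and at 237, 473 and 496 TPM in LD. LP replicate 1 stood above the other lactation libraries and in the range of the non-lactating ones. bta-miR-196b was measured at 172, 142.01 and 194 TPM in HP, and at 71.9, 102 and 156 TPM in LP. It was measured at 233, 266 and 268 TPM in HD, and at 147, 231 and 226 TPM in LD. The 3 HD libraries lay above all 6 lactation libraries, while LD replicate 1 lay within the lactation range. The plot of levels by group shows these values.

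**Figure D1:**
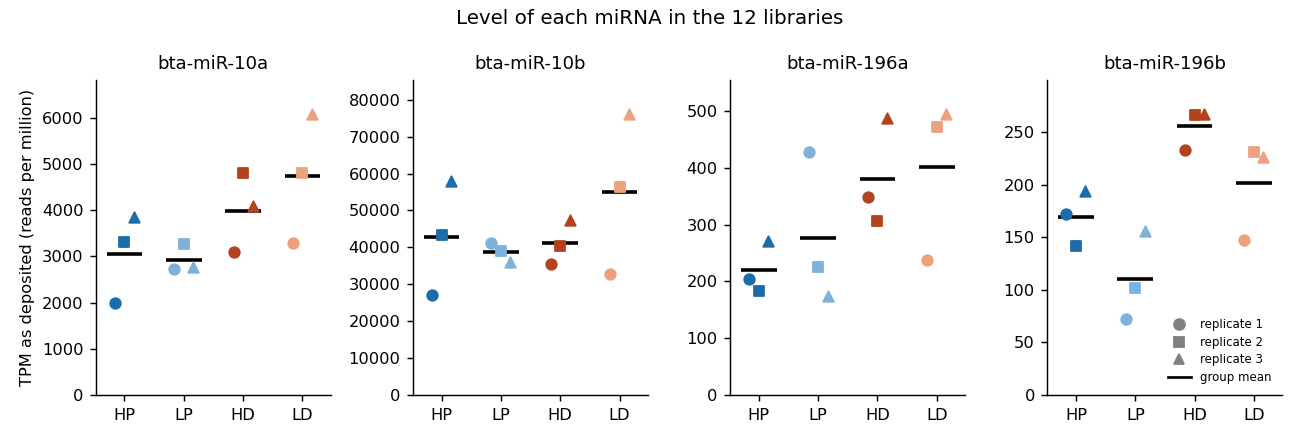
TPM as deposited (y axis, linear from 0) of the 4 members in the HP, LP, HD and LD groups. Each point is 1 library, marked by replicate number, and the bar is the group mean; groups overlap for bta-miR-10a and bta-miR-10b, and the 3 HD libraries of bta-miR-196b (233 to 268 TPM) lie above all 6 lactation libraries.

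The comparison of HP with LP asks whether miRNAs differ with milk protein percentage in lactation. No member was a DE miRNA (unadjusted p under 0.05 and absolute log2 fold change over 0.8), where 10.1% of the 388 miRNAs were. bta-miR-196b had the largest difference, a mean of 110 ± 42.6 TPM in LP against 169 ± 26.2 TPM in HP (SD, n = 3), with a log2 fold change of LP over HP of -0.64 (SE 0.31, unadjusted p = 0.0624 and adjusted p = 0.361 in limma). The log2 fold changes of the others were 0.02 for bta-miR-10a, -0.04 for bta-miR-10b and 0.28 for bta-miR-196a, with adjusted p from 0.848 to 0.984. Without LP replicate 3, bta-miR-196b passed the threshold of a DE miRNA (log2 fold change -0.92, adjusted p = 0.368 in limma), as did 8.51% of all miRNAs in that fit.

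The comparison of HD with LD asks the same in the non-lactating period. No member was a DE miRNA in this fit, where 3.35% of the 388 were. The study's authors modeled read counts with DESeq2 at the same thresholds and list every member as DE, downregulated in LD relative to HD. In the fit here bta-miR-10a, bta-miR-10b and bta-miR-196a had the opposite sign, higher in LD, and bta-miR-196b the same sign. Outside the members, miR-146b is listed by the authors as downregulated in LP. Here its log2 fold change of LP over HP was 1.59. The signs of the other miRNAs they list were not compared. The reason for these differences in call and sign was not tested. The log2 fold changes of LD over HD were 0.46 for bta-miR-10a, 0.58 for bta-miR-10b, 0.27 for bta-miR-196a and -0.13 for bta-miR-196b, with adjusted p = 0.993 in limma for each. The 95% intervals were wide, from -0.86 to 2.03 for bta-miR-10b and from -1.28 to 1.02 for bta-miR-196b. The values depended on single LD libraries. Without LD replicate 2 or LD replicate 3 the fold change of bta-miR-196a turned to -0.066 and -0.087. Without LD replicate 1 bta-miR-10a (1.05), bta-miR-10b (1.27) and bta-miR-196a (0.96) passed the threshold of a DE miRNA, among 36 miRNAs (9.28%) that did, each with an adjusted p of 0.383 or more. Without HD replicate 1 the fold changes were 0.11, 0.31, 0.04 and -0.37 in the order above, none past the threshold. Without both replicates 1 they were 0.68, 0.98, 0.72 and 0.17, and bta-miR-10b was a DE miRNA (adjusted p = 0.642 in limma), as were 5.67% of all.

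Lactation was compared with the non-lactating period over all 12 libraries. No member passed an adjusted p of 0.05, where 44.3% of the 388 miRNAs did, and none had an unadjusted p under 0.05 in limma. The log2 fold changes of lactation over the non-lactating period were -0.43 for bta-miR-10a, -0.11 for bta-miR-10b, -0.57 for bta-miR-196a and -0.65 for bta-miR-196b. The last had an unadjusted p of 0.0535 and an adjusted p of 0.105 in limma, with a 95% interval from -1.31 to 0.01. Without LD replicate 1, bta-miR-10a (-0.70, adjusted p = 0.0322), bta-miR-196a (-0.90, adjusted p = 0.0321) and bta-miR-196b (-0.91, adjusted p = 0.00791) were lower in lactation by the limma test, where 46.9% of all miRNAs passed. Without HD replicate 1 none passed. Without both replicates 1 the same 3 members passed (-0.88, -1.02 and -1.04) and bta-miR-10b did not (-0.57, adjusted p = 0.0610 in limma), where 46.6% of all miRNAs passed. On TPM without size factors bta-miR-196b alone of the members passed (-0.75, adjusted p = 0.0303), where 35.6% of all did.

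The phenotype difference was then compared between the stages. No member had an unadjusted p under 0.05 for this interaction in limma, where 5.15% of the miRNAs did, and the members' p ran from 0.404 to 0.978. Without LD replicate 1, bta-miR-10b and bta-miR-196b had an unadjusted p under 0.05, with adjusted p of 0.589 and 0.629 in limma, where 7.73% of all miRNAs had such an unadjusted p. Without both replicates 1, or without HD replicate 1, no member had one.

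**Figure D2:**
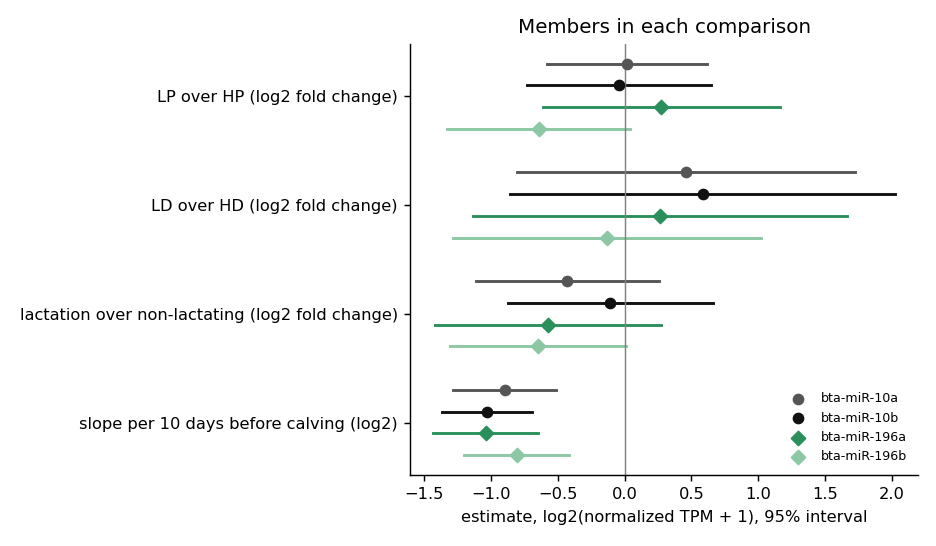
Estimates of the 4 members with 95% intervals in 4 comparisons (x axis, log2 of normalized TPM + 1), as log2 fold changes in the upper 3 rows and as log2 slope per 10 days before calving in the lowest. All intervals of the fold changes cross 0, and all 4 slope intervals lie below 0.

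Within the non-lactating period the members were ordered by the day of sampling. All 4 had a higher level nearer calving, in a model with the day and the phenotype. The unadjusted p was under 0.05 for 4 of 4 members, where 27.3% of the 388 miRNAs had such a p, and the adjusted p was under 0.05 for 4 of 4, where 6.19% had one. Of all miRNAs, 3.61% had an adjusted p under 0.05 and a higher level nearer calving, or 14 miRNAs, 4 of them members.

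bta-miR-10b was at 21947 normalized TPM in the cow sampled 39 days before calving, 26115 at 35 days, 37513 at 29 days, 78585 at 23 days, 53598 at 21 days and 102448 at 20 days. Its log2 slope was -1.03 per 10 days farther from calving (SE 0.14, adjusted p = 0.0242 in limma). Both cows farthest from calving had the lowest levels, and the 3 nearest had the highest. bta-miR-10a rose over the same days from 2218 and 2274 normalized TPM at 39 and 35 days to 4463 at 29 days, 6710 at 23 days, 4616 at 21 days and 8192 at 20 days. Its log2 slope was -0.90 (SE 0.16, adjusted p = 0.0353 in limma). At 21 days the level of HD replicate 3 lay close to that of HD replicate 2 at 29 days.

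bta-miR-196a was at 159 normalized TPM at 39 days, 256 at 35 days, 285 at 29 days, 660 at 23 days, 552 at 21 days and 667 at 20 days. Its log2 slope was -1.04 (SE 0.16, adjusted p = 0.0242 in limma). The 3 libraries within 23 days of calving lay above the other 3, with a gap between 285 and 552. bta-miR-196b was at 98.9 normalized TPM at 39 days, 171 at 35 days, 247 at 29 days, 323 at 23 days, 303 at 21 days and 304 at 20 days. Its log2 slope was -0.81 (SE 0.16, adjusted p = 0.0400 in limma). Here the 3 libraries nearest calving were level with each other.

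**Figure D3:**
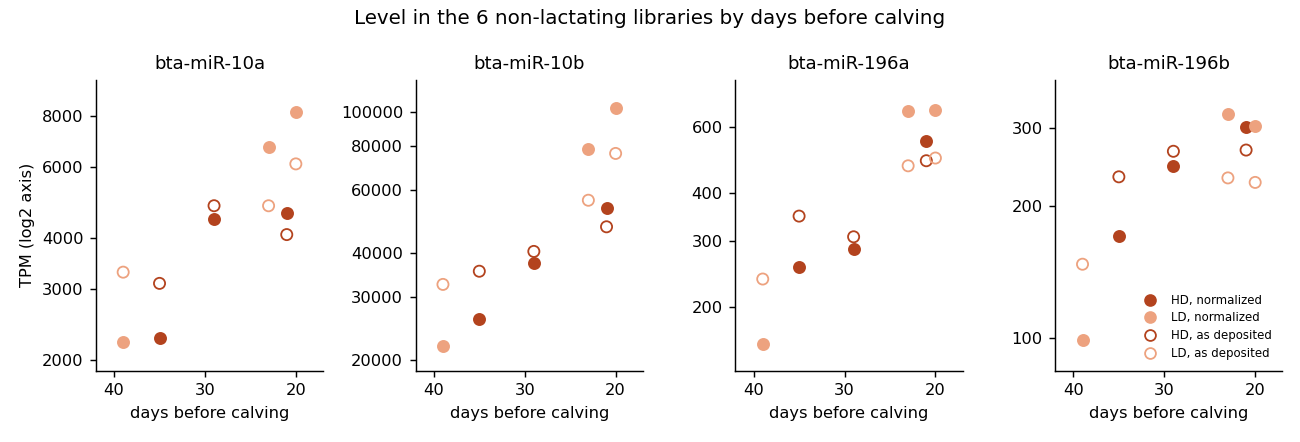
TPM (y axis, log2 scale) of the 4 members in the 6 non-lactating libraries against days before calving (x axis, running towards calving), with filled points normalized by size factors and open points as deposited. Both scales place the library at 39 days lowest or nearly so, and normalization widens the rise, for bta-miR-10b from 32646 to 76263 TPM as deposited to 21947 to 102448 normalized.

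Over the 6 libraries Pearson's r of the normalized level with days before calving was -0.922 for bta-miR-10a, -0.937 for bta-miR-10b, -0.966 for bta-miR-196a and -0.945 for bta-miR-196b. The exact permutation p were 0.0181, 0.0111, 0.00417 and 0.00694, and adjusted over the 8 correlations each was 0.0206 (two-sided). Spearman's rho was -0.943 for the first 3 members (exact permutation p = 0.0167) and -0.829 for bta-miR-196b (exact permutation p = 0.0583). When HD replicate 1 and LD replicate 1, the libraries farthest from the median day, were left out, r over the remaining 4 was -0.603, -0.800, -0.919 and -0.846 in the same order. With 4 libraries r carries little weight, and for bta-miR-10a the relation was the most reduced. On TPM as deposited r was -0.807 for bta-miR-10a, -0.885 for bta-miR-10b, -0.926 for bta-miR-196a and -0.657 for bta-miR-196b, with exact permutation p of 0.0667, 0.0208, 0.00972 and 0.117, adjusted 0.107, 0.0417, 0.0417 and 0.156. Spearman's rho on this scale was -0.714, -0.943, -0.943 and -0.257, with exact permutation p of 0.136, 0.0167, 0.0167 and 0.658. Without the same pair of libraries r was -0.202, -0.762, -0.974 and 0.507, so on TPM as deposited the relation of bta-miR-10a and bta-miR-196b with the day did not hold, the latter turning in direction.

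Several measures moved with the day in the same 6 libraries. Days before calving correlated with the log2 size factor (r = 0.952), with implied reads (r = -0.834) and with days after dry-off (r = -0.740), so these cannot be told apart from the day in this design. The median slope of all 388 miRNAs was -0.02 with size factors and 0.41 on TPM without them, and the miRNAs with an unadjusted p under 0.05 went from 53 lower and 53 higher nearer calving to 173 lower and 8 higher. On that scale the slopes were -0.37 for bta-miR-10a, -0.50 for bta-miR-10b, -0.51 for bta-miR-196a and -0.28 for bta-miR-196b, with adjusted p of 0.0989, 0.0279, 0.0490 and 0.188 in limma. On this scale too the sign was negative for each member. The median on this scale was not computed for miRNAs as abundant as the members.

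Abundance moved with the slope as well. The 134 miRNAs with a mean of at least 100 TPM, a limit set after the slopes were seen, had a median slope of -0.10, and the 254 below had one of 0.05. Of the 134, 35.1% had an unadjusted p under 0.05 and 9.70% an adjusted p under 0.05. Of the 134, 18 had a slope as steep as or steeper than the flattest member, the 4 members among them, and of the 254 below, 7 had one. With size factors computed from miRNAs of at least 100 TPM alone, all 4 members still had an adjusted p under 0.05, as did 46 of 388 miRNAs (11.9%), and the slopes were -0.72 for bta-miR-10a, -0.85 for bta-miR-10b, -0.87 for bta-miR-196a and -0.63 for bta-miR-196b.

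**Figure D4:**
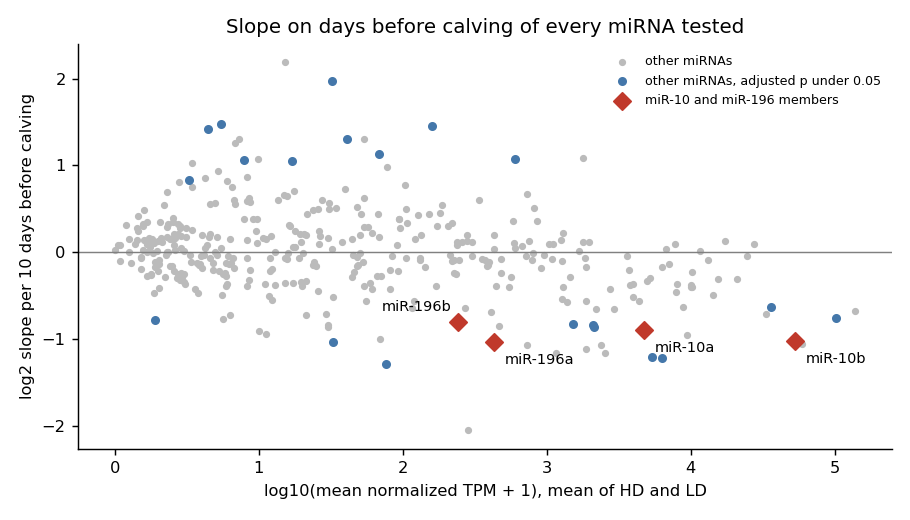
Log2 slope per 10 days before calving (y axis) of all 388 miRNAs against log10 of mean normalized TPM + 1 in the HD and LD libraries (x axis). Diamonds mark the 4 members (slopes -0.81 to -1.04), blue points the other miRNAs with an adjusted p under 0.05, and abundant miRNAs lie mostly below 0 (median -0.10 from 100 TPM on).

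LD replicate 1 also bore on the slope. Without it bta-miR-10b (-0.74) and bta-miR-196a (-0.76) kept an unadjusted p under 0.05, while bta-miR-10a (-0.68) and bta-miR-196b (-0.52) did not, and the adjusted p in limma ran from 0.429 to 0.507. Without LD replicate 1, HD replicate 1 or LD replicate 3, 0 of 388 miRNAs had an adjusted p under 0.05 in limma, the members among them, and without HD replicate 3 there were 4, of which 1 was a member. With HD replicate 1 and LD replicate 1 both left out and no phenotype term, bta-miR-196a kept an unadjusted p under 0.05 (slope -1.32, adjusted p = 0.393 in limma) and the slopes of the others were -0.64, -1.26 and -0.36. The slope was -0.57 to -0.81 in HD and -0.92 to -1.16 in LD, and the difference between the phenotypes was not past the threshold for any member (unadjusted p from 0.134 to 0.431 in limma).

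The relatives miR-99a-5p, miR-99b and miR-100 had a higher level nearer calving in 3 of 3 cases, with log2 slopes of -1.21, -0.84 and -1.22 and adjusted p of 0.0199, 0.0242 and 0.0199 in limma. None of the 3 passed a threshold in the other comparisons. Summed over the 3, the level was 7101 TPM in LD replicate 1 at 39 days and 17930 TPM in LD replicate 3 at 20 days. Cell type markers followed the day less uniformly. Of 6 epithelial markers, 1 was lower nearer calving at an unadjusted p under 0.05 (miR-429) and 1 higher (miR-141). Of 5 stromal markers, 1 was lower (miR-199a-5p) and 1 higher (miR-143), and of 5 leukocyte markers 1 was lower (miR-150). None of the 2 endothelial, 3 erythroid and 2 skeletal muscle markers measured had such a p, and no marker had an adjusted p under 0.05. The 3 erythroid markers all had negative slopes about as steep as those of the members. These were -1.07 for miR-451, -0.84 for miR-144 and -1.17 for miR-486 (unadjusted p = 0.212, 0.306 and 0.0508 in limma). The summed stromal markers ranged from 99414 to 238300 TPM in the non-lactating libraries, and the erythroid ones from 413 to 6127 TPM, the latter in LD replicate 2. In bulk tissue fewer cells of a type and less RNA per cell cannot be told apart, and the part of cell composition in the slopes was not tested.

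Ratios within a library do not depend on size factors. The ratio of bta-miR-10b over bta-miR-10a was 13.6, 13.1 and 15.0 in HP, and 15.1, 11.9 and 12.9 in LP. It was 11.5, 8.41 and 11.6 in HD, and 9.89, 11.7 and 12.5 in LD. The lactation libraries thus lay higher, with an overlap only between LP replicate 2 and LD replicate 3. The mean log2 ratio was 3.76 ± 0.13 over HP and LP and 3.44 ± 0.21 over HD and LD (SD, n = 6), a difference of 0.32 (two-sided exact permutation p = 0.00433, adjusted over 6 ratio tests 0.0260). With 1 library left out the difference was 0.25 to 0.36 and its adjusted p 0.0260 to 0.0519 (exact permutation test), under 0.05 only without LP replicate 2 or LD replicate 3. The direction held within each phenotype, with 3.79 in HP against 3.38 in HD and 3.73 in LP against 3.50 in LD. Depth also differed between the stages, and its part was not tested. Between the phenotypes the ratio differed by -0.06 in lactation (exact permutation p = 0.6) and by 0.12 in the non-lactating period (exact permutation p = 0.5), where 3 libraries against 3 cannot give a p under 0.1.

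The ratio of bta-miR-196a over bta-miR-196b was 1.19, 1.29 and 1.40 in HP and 5.96, 2.21 and 1.11 in LP. It was 1.50, 1.15 and 1.82 in HD and 1.61, 2.04 and 2.20 in LD. LP replicate 1 was far above the rest, with the highest bta-miR-196a and the lowest bta-miR-196b of the lactation libraries. The log2 ratio differed by 0.92 between LP and HP (exact permutation p = 0.4), by 0.40 between LD and HD (exact permutation p = 0.2), and by 0.08 between the stages (exact permutation p = 0.905), none past the threshold.

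**Figure D5:**
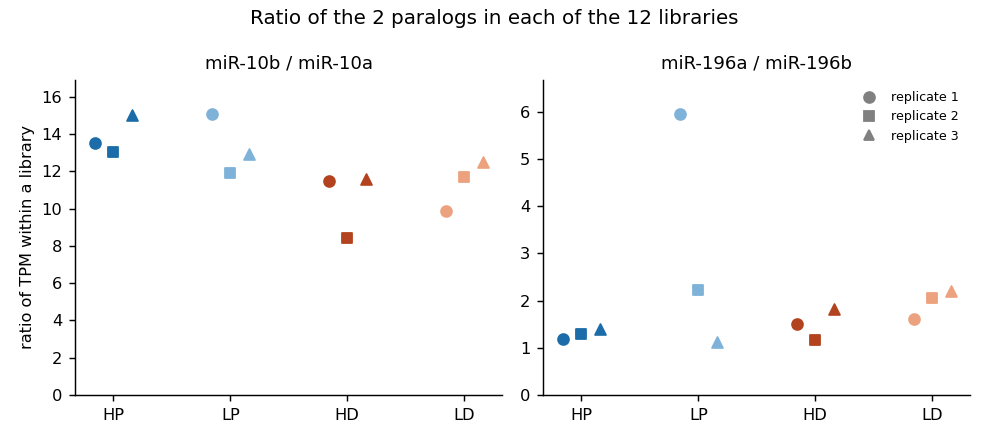
Ratio of TPM within each library (y axis, linear from 0) of bta-miR-10b over bta-miR-10a (left) and of bta-miR-196a over bta-miR-196b (right) in the 4 groups, 1 point per library. The left ratio is 11.9 to 15.1 in HP and LP and 8.41 to 12.5 in HD and LD, and on the right LP replicate 1 stands at 5.96.

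The pair of precursors of bta-miR-196a were listed separately. The row of MIR196A-1 had a mean of 147 TPM and that of MIR196A-2 a mean of 320 TPM, and the first was 0.393 to 0.566 times the second in each library. The mature sequence of a shared miRNA can be counted at both precursors, so the rows are not independent, and how reads were divided between them is not given in the sources used here. Fitted over every precursor row, both had a higher level nearer calving (slopes -0.97 and -1.03, adjusted p = 0.0342 and 0.0242 in limma).

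Across libraries the members moved together in the non-lactating period, where the correlations of their log2 normalized TPM within groups were 0.908 to 0.980 over 6 libraries. Without HD replicate 1 and LD replicate 1 they were -0.190 to 0.951 over 4 libraries, with bta-miR-10a and bta-miR-10b at 0.694. In lactation bta-miR-10a and bta-miR-10b correlated at 0.940 over 6 libraries, and the other pairs ranged from -0.448 to 0.559. All miRNAs of a library share its size factor and depth, so the values are a description. Over all 12 libraries the miRNAs most like bta-miR-10b, of 233 compared, were miR-99a-5p (r = 0.976), bta-miR-10a (0.966) and miR-192 (0.960). For bta-miR-10a they were bta-miR-10b (0.966), miR-1388-5p (0.952) and miR-151-5p (0.950). bta-miR-196a was most like miR-26a (0.930), miR-409a (0.917) and miR-185 (0.899). bta-miR-196b had lower maxima, with miR-140 (0.837), miR-181d (0.835) and miR-6120-3p (0.793). Without HD replicate 1 and LD replicate 1 these values were 0.881 to 0.949 for bta-miR-10b, 0.779 to 0.881 for bta-miR-10a and 0.771 to 0.883 for bta-miR-196a over 10 libraries. Those of bta-miR-196b fell to between 0.126 and 0.275.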

How the data were processed

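Small RNA of 12 mammary biopsies was sequenced on an Illumina HiSeq. According to the study's methods and the labels, the authors trimmed reads with Cutadapt and Trimmomatic, mapped them to the bovine ARS-UCD1.2 genome with Bowtie allowing a mismatch, and counted known miRBase miRNAs with miRDeep2. The authors deposited 1 table in RPM, named TPM by them and not corrected for length, for 426 precursor rows and 12 libraries; 0 columns were left unused. Days in milk, before calving and after dry-off came from the study's list of cows, matched by group and replicate number.

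Values were scaled by size factors (median of ratios), 1 was added before log2, and 388 miRNAs were fitted with limma 3.58.1 in R 4.3.3 with a mean-variance trend; Benjamini-Hochberg adjustment ran over all miRNAs. Ratios and correlations used two-sided exact permutation tests in Python 3.11.15 with numpy 2.4.6 and pandas 2.3.3, and plots used matplotlib 3.10.9. The fits were tested on simulated data with 200 miRNAs changed, where the largest spreads were capped. Of log2 changes of 1, 65% were recovered in HP vs LP, 62% in HD vs LD and 85% between the stages. Of slopes of 1 per 10 days, 89% were recovered. Of unchanged miRNAs, 2.66% to 5.32% were called at that size. A change of this size can thus be missed, above all between the phenotypes. Depth was inferred from the value of 1 read, and at least 99.4% of the values checked in a library were whole multiples of it within 0.0051 TPM. This was not accepted as a full recovery of reads, and read numbers bear on counting error only. Replicates were separate cows. Besides the 4 members, the text names their precursors, miRNAs of lists of seed relatives and cell type markers, and the 3 miRNAs most like each member. The members and lists were chosen with earlier results of these data known. Count models were not run. Mature sequences were not used here.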

Additional observations from a re-analysis of the deposited data

How the results depend on the processing

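The members' counts were recomputed under TPM without size factors, pseudocounts of 0.1 and 5, a mean of at least 10 TPM, no trend, every precursor row, size factors from abundant miRNAs, and the fits and left-out libraries named here. With 1 library left out, the members called ranged from 0 to 1 in HP vs LP, 0 to 3 in HD vs LD, 0 to 3 between the stages, 0 to 2 for the interaction, and, for days before calving, 2 to 4 at an unadjusted p under 0.05 and 0 to 4 after adjustment. TPM without size factors gave 1 member between the stages and, for days, 3 before and 2 after adjustment; a pseudocount of 5 gave 3 after adjustment. Leaving out size factors moved the median of all miRNAs from 0.03 to -0.16 in HD vs LD, where DE miRNAs went from 13 (8 higher in LD) to 3 (0 higher), and from -0.04 to 0.11 for the interaction. The fits reported did not pair cows by replicate number. Same-numbered libraries correlated at -0.203, -0.259 and 0.012 in lactation and at 0.545, -0.114 and 0.503 in the non-lactating period. In the latter, 0.545 and 0.503 lay above every pair of unlike number (highest 0.290). Deviations from a mean of 3 libraries are not independent, so these values cannot decide whether the numbers pair cows. With the replicate number as a block, 1 member had an unadjusted p under 0.05 for days and 0 an adjusted one, while HP vs LP, HD vs LD, the stages and the interaction stayed at 0. Chosen after seeing the data, days after dry-off in place of days before calving gave 2 and 0 members, and leaving out HD replicate 1 and LD replicate 1 gave 1 and 0. Leaving out both gave 1 member in HD vs LD, 3 between the stages and 0 for the interaction, and turned the fold change of LD over HD for bta-miR-196b to 0.17. Over all alternatives the miRNAs called were 22 to 53 in HP vs LP (39 in the fit reported), 3 to 36 in HD vs LD (13), 113 to 186 between the stages (172), 7 to 32 for the interaction (20) and 36 to 181 for days (106), and 0 to 124 for days after adjustment (24).

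Small fold changes turned in direction: that of LP over HP for bta-miR-10a to -0.014 without size factors, and for bta-miR-10b to 0.0063 with all 12 libraries in 1 fit. With 1 library left out, the values ran as follows. The log2 fold change of LP over HP ranged from -0.22 to 0.15 for bta-miR-10a, -0.30 to 0.15 for bta-miR-10b and -0.21 to 0.57 for bta-miR-196a, and that of LD over HD from -0.087 to 0.96 for bta-miR-196a and -0.43 to 0.43 for bta-miR-196b. Between the stages that of bta-miR-10b ranged from -0.43 to 0.12. The difference in log2 ratio of miR-10b over miR-10a ranged from -0.16 to 0.012 in HP vs LP and from -0.029 to 0.22 in HD vs LD, and between the stages from 0.25 to 0.36 with an exact permutation p of at most 0.00866, which adjusted over the 6 ratio tests is 0.0519. The difference in log2 ratio of miR-196a over miR-196b between the stages ranged from -0.27 to 0.21. Other changes of a member's call are given beside its result. The cause of each change was not tested. The planned edgeR and DESeq2 fits were not run, since the deposited values are normalized and were not accepted as recovered reads. With 3 libraries a group an exact test of a ratio cannot give a p under 0.1, and read numbers are estimates.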
